A study of Mus musculus with 4 samples.

Results

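The genes of the antioxidant and glutathione system were examined in RNA-seq counts of E13.5 mouse retinas in which *Nrf1* had been deleted. The 33 genes were chosen by name, as the superoxide, peroxide, thioredoxin and glutathione enzymes together with *Nfe2l2*, *Keap1* and a few of their known targets, and all 33 were found among the 24062 genes of the count table. There were 4 libraries of retinas on a C57BL/6 129 mixed background, 2 from wildtype embryos and 2 from Nrf1-CKO embryos, which carried *Nrf1* alleles flanked by loxP sites (Nrf1 f/f) and the *Six3-Cre* transgene. *Six3-Cre* becomes active in progenitor cells of the central retina, so cells outside its range, such as those of the retinal margin, can keep the gene, and each library pooled the retinas of several littermates. The comparison asked whether expression of these genes differed once *Nrf1* was lost from the developing retina. Since each library is a whole tissue, fewer cells of a type and less RNA per cell cannot be told apart.

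Reactive oxygen species are by-products of respiration. Superoxide dismutases turn superoxide into hydrogen peroxide, and catalase, the glutathione peroxidases and the peroxiredoxins remove the peroxide. The glutathione peroxidases and the peroxiredoxins take the electrons for this mainly from glutathione and from thioredoxin. Glutathione is built from cysteine, which enters many cells as cystine through the transporter made of Slc7a11 and Slc3a2, and the transcription factor Nfe2l2 (commonly called Nrf2), held in check by Keap1, switches on many of these genes under oxidative or electrophilic stress. Nfe2l2 and its relative Nfe2l1 are products of other genes than *Nrf1*, which encodes nuclear respiratory factor 1, a regulator of nuclear genes for mitochondrial proteins.

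Reads counted on genes came to between 74577660 and 85933945 per library. Levels are given as counts or as CPM, counts scaled to the same total in every library with edgeR's TMM factors, and as mean ± SD of 2 libraries per genotype. The quasi-likelihood test of edgeR compared the genotypes over 15762 genes, p-values were adjusted by the Benjamini-Hochberg method, and genes that differed by 1.4-fold or more with an adjusted p of at most 0.2 were called. Log2 fold changes are those of Nrf1-CKO over wildtype, with their standard error (SE). *Nrf1* itself (GRCm38 chromosome 6, 30047988 to 30153458) had 9052 and 7789 counts in wildtype against 8594 and 8284 in Nrf1-CKO libraries, a log2 fold change of -0.03 (SE 0.07, edgeR adjusted p = 0.794). The deletion removes only part of the gene, so this count over the whole gene does not check the labels. Among the marker lists, all 9 genes of retinal ganglion cells fell and none of the 8 progenitor genes was called, while 12 of 12 macrophage and microglia genes and 9 of 9 tested lens genes rose.

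The system as a whole moved little. Of the 33 genes, 32 had enough reads to be tested, and 4 of them rose: *Slc7a11*, *Gss*, *Hmox1* and *Nqo1*. None was called lower. The 4 genes are 12.5% of those tested, and 12.8% of all tested genes were called higher, so the share was near that of all genes. Of all tested genes 8.04% were called lower. The median log2 fold change of the 32 genes was 0.04, beside 0.00 over all tested genes, and the median size of the change in either direction was 0.15 beside 0.22. Summed over the 33 genes, the level was 2122 and 2083 CPM in wildtype against 2016 and 2113 CPM in Nrf1-CKO libraries, and these values overlap. In 19 genes both Nrf1-CKO libraries lay beyond both wildtype libraries, 9 below and 10 above. That is 59.4% of those tested, where 62.5% of all tested genes did not overlap between the genotypes.

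**Figure D1:**
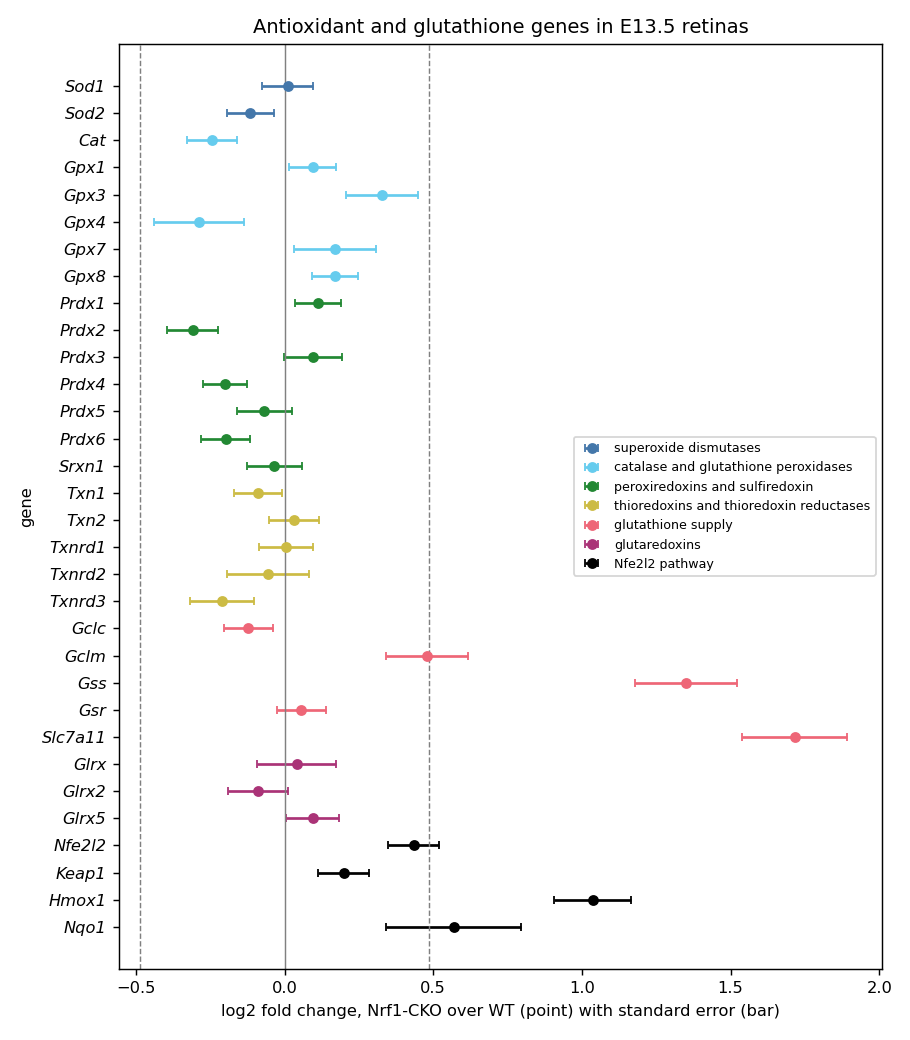
Log2 fold change of Nrf1-CKO over wildtype for the 32 tested genes (points) with its SE (bars), coloured by functional group; the dashed lines mark a 1.4-fold change in either direction. *Slc7a11*, *Gss*, *Hmox1* and *Nqo1* lie to the right of the upper line, *Gclm* sits on its inner edge at 0.48, and no gene lies to the left of the lower line.

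The promoter sequences of *Slc7a11* and *Gss* are shown because these genes rose most and because their start sites carry matches to short sequence motifs that few other genes of the system had. RefSeq promoters of GRCm38.p6, from 250 bases before to 50 bases after the start site, were at hand for 28 of the 33 genes, and of the called genes that leaves *Slc7a11*, *Gss* and *Nqo1*. 3 motifs were searched on both strands, chosen after the sequences had been read: the consensus site of NRF1 (the capitals of the *Gss* line, with the base after the A left free), TGACNNNGC, the core of the antioxidant response element bound by Nfe2l2, and TGATGNAA, the composite site of Atf4 and C/EBP proteins. The lines give the 100 bases that end just before the *Slc7a11* start site, on the minus strand at chr3:50443614-50443713, with TGATGNAA matches of either strand in capitals, and 30 bases round the NRF1 site match of *Gss*, on the minus strand at chr2:155592769-155592798, with that match in capitals.
Slc7a11: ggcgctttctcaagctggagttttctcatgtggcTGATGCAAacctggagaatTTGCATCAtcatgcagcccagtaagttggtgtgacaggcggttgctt
Gss: ggggcggtctGCGCAGGCGCactgggtcgt
The first *Slc7a11* match runs from base -66 to -59 on the strand of the gene and the second from -47 to -40 on the other strand. No other of the 28 promoters held TGATGNAA, which was found in 4.51% of all 27025 promoters and in 2.77% of those of tested genes. The NRF1 site was found in 2 of the 28, *Gss* (bases 22 to 31 after the start) and *Gpx4*, against 5.19% of all promoters and 10.1% of those of tested genes. *Gss* rose and *Gpx4* was not called. TGACNNNGC was found in 6 of the 28, *Gclm*, *Nfe2l2*, *Prdx1*, *Sod1*, *Srxn1* and *Txnrd1*, against 14.0% of all promoters and 16.7% of those of tested genes, and none of these 6 genes was called. A match describes letters in the sequence and not binding.

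Glutathione supply held the 2 genes with the largest changes, *Slc7a11* and *Gss*. Of its 5 genes 2 rose and none was called lower, beside 12.8% and 8.04% of all tested genes. The summed level of the 5 genes was 153 and 145 CPM in wildtype against 208 and 190 CPM in Nrf1-CKO libraries. *Slc7a11*, the cystine importer subunit, lies on chromosome 3 of GRCm38 from 49892526 to 50443614 on the minus strand. It had 1449 and 813 counts in wildtype against 4051 and 3455 in Nrf1-CKO libraries. Both Nrf1-CKO libraries were far above both wildtype libraries, and the wildtype pair differed more from each other than the Nrf1-CKO pair in relative terms. The level rose from 13.8 ± 3.95 to 45.3 ± 4.95 CPM, a log2 fold change of 1.72 (SE 0.18, edgeR adjusted p = 0.000294). Leaving out single libraries gave log2 fold changes of 1.45 to 2.05.

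*Gss* encodes glutathione synthetase, which adds glycine in the last step of glutathione synthesis, and lies on chromosome 2 from 155563181 to 155592810 on the minus strand. It had 989 and 765 counts in wildtype against 2718 and 1852 in Nrf1-CKO libraries. The genotypes did not overlap, and the first Nrf1-CKO library was higher than the second after scaling, with 32.7 and 22.4 CPM. The mean rose from 10.8 ± 0.692 to 27.6 ± 7.31 CPM, a log2 fold change of 1.35 (SE 0.17, edgeR adjusted p = 0.000778), and leaving out single libraries gave 1.05 to 1.60. Exons of *Gss* overlap exons of *Acss2*, *Gssos1* and *Gssos2* on the opposite strand over 1102 bases. Exons of *Gclm*, *Keap1*, *Prdx5*, *Prdx2* and *Txnrd2* also overlap exons of other genes, over 176 to 540 bases. Whether the counting used the strand is not given in the sources used here, so reads there cannot be assigned to one gene. *Acss2*, an acetyl-CoA synthetase, moved the other way from *Gss*, and its fold was under the threshold. It had 2830 and 2090 counts in wildtype against 1858 and 1837 in Nrf1-CKO libraries (log2 fold change -0.44, SE 0.10, edgeR adjusted p = 0.0149). Levels of *Gssos1* and *Gssos2* are not given here.

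The enzyme that starts glutathione synthesis, glutamate-cysteine ligase, has a catalytic subunit, *Gclc*, and a modifier subunit, *Gclm*. *Gclm* had 832 and 637 counts in wildtype against 1124 and 968 in Nrf1-CKO libraries. Both Nrf1-CKO libraries were above both wildtype libraries once scaled, with means of 9.04 ± 0.645 and 12.6 ± 1.29 CPM. Its log2 fold change of 0.48 (SE 0.14, edgeR adjusted p = 0.036) was just short of the 0.49 that a 1.4-fold change amounts to, so it was not called. *Gclc* had 4694 and 4107 counts in wildtype against 4377 and 3924 in Nrf1-CKO libraries, and both Nrf1-CKO libraries were slightly below the wildtype pair (log2 fold change -0.12, SE 0.08, edgeR adjusted p = 0.339). *Gsr*, the reductase that returns oxidised glutathione to its reduced form, overlapped between the genotypes, at 60.9 ± 1.11 and 63.3 ± 4.77 CPM (log2 fold change 0.06, SE 0.08, edgeR adjusted p = 0.681). The call of *Gclm* depended on the settings: it was called in 5 of 16 alternatives, among them without the first wildtype library (log2 fold change 0.56) and without the second Nrf1-CKO library (0.58).

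**Figure D2:**
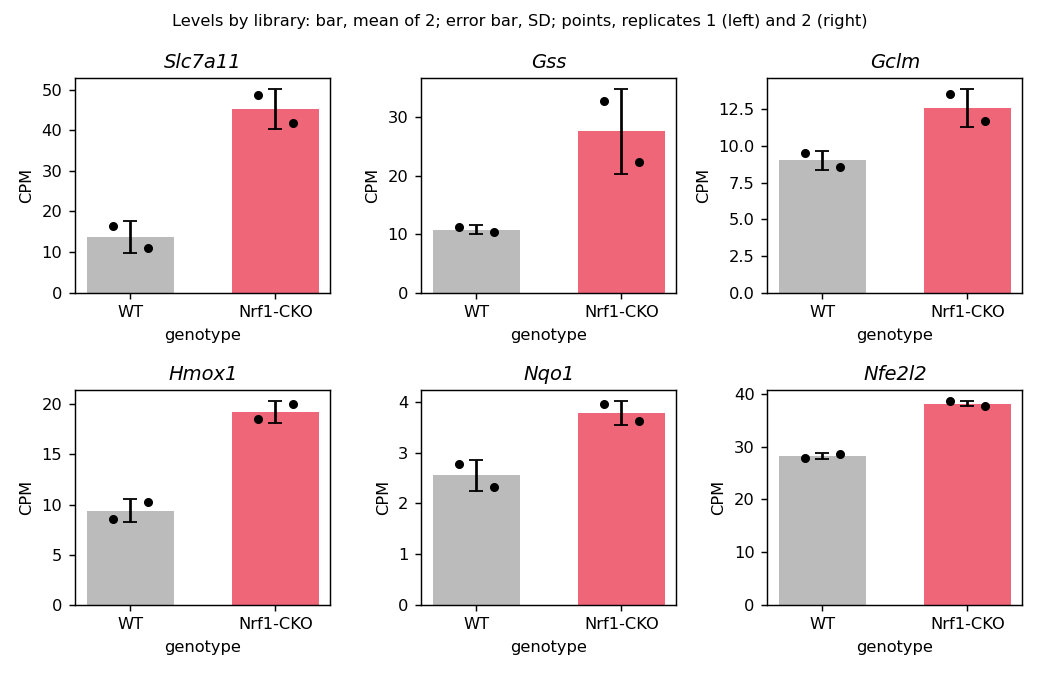
Levels in CPM of *Slc7a11*, *Gss*, *Gclm*, *Hmox1*, *Nqo1* and *Nfe2l2* by genotype; bars are the mean of 2 libraries, error bars the SD, and points the libraries, with replicate 1 on the left. In all 6 genes both Nrf1-CKO points lie above both wildtype points, from *Slc7a11* (13.8 against 45.3 CPM) to *Nfe2l2* (28.3 against 38.2 CPM).

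Of the 4 genes of the Nfe2l2 pathway 2 rose, beside 12.8% of all tested genes. All 4 had both Nrf1-CKO libraries above both wildtype libraries, as did 30.9% of all tested genes. *Hmox1*, heme oxygenase 1, which breaks heme down to biliverdin, iron and carbon monoxide, lies on chromosome 8 from 75093621 to 75100589. It had 753 and 757 counts in wildtype against 1536 and 1658 in Nrf1-CKO libraries. Replicates were close to each other and the genotypes were well apart, at 9.40 ± 1.14 and 19.3 ± 1.10 CPM, a log2 fold change of 1.04 (SE 0.13, edgeR adjusted p = 0.000699). *Hmox1* is also made in quantity by macrophages, and the 12 macrophage and microglia markers all rose, with a summed level of 85.3 to 91.7 CPM in wildtype against 277 to 333 CPM in Nrf1-CKO libraries. None of these markers was at 0 in any library. Their part in the rise of *Hmox1* was not tested.

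*Nqo1*, a quinone reductase and a standard target of Nfe2l2, lies on chromosome 8 from 107388225 to 107403206. It was the least abundant of the tested genes in CPM, with 243 and 173 counts in wildtype against 329 and 300 in Nrf1-CKO libraries. The genotypes did not overlap, at 2.55 ± 0.313 and 3.79 ± 0.236 CPM, and its SE was the largest of the 32 genes (log2 fold change 0.57, SE 0.23, edgeR adjusted p = 0.109). The call did not hold without the second wildtype library (log2 fold change 0.45) or without the first Nrf1-CKO library (0.51).

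The transcripts of the regulator and its inhibitor moved less than those called. *Nfe2l2* had 2440 and 2126 counts in wildtype against 3204 and 3126 in Nrf1-CKO libraries. The replicates were nearly equal, at 28.3 ± 0.567 and 38.2 ± 0.554 CPM, and the log2 fold change was 0.43 (SE 0.08, edgeR adjusted p = 0.00648), which fell under the fold that a call needs. *Keap1*, the adaptor that marks Nfe2l2 for degradation, went from 51.7 ± 2.45 to 59.3 ± 4.77 CPM (log2 fold change 0.20, SE 0.09, edgeR adjusted p = 0.139) and was not called either. Nfe2l2 is regulated mainly through the stability of its protein, which these counts do not measure.

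None of the enzymes that remove superoxide and peroxide was called, and the peroxiredoxins among them were the most abundant group of the system. The 6 peroxiredoxins and *Srxn1*, the sulfiredoxin that restores over-oxidised peroxiredoxins, summed to 943 and 906 CPM in wildtype against 788 and 848 CPM in Nrf1-CKO libraries. *Prdx2*, a cytosolic peroxiredoxin, made up most of that difference. It had 37247 and 31072 counts in wildtype against 26670 and 29824 in Nrf1-CKO libraries, and both Nrf1-CKO libraries were below the wildtype pair, at 422 ± 4.51 and 341 ± 27.9 CPM. Its log2 fold change of -0.31 (SE 0.09, edgeR adjusted p = 0.0316) was the lowest of the 32 genes and was still under the fold a call needs. Of its 50-base transcript words 23.8% also occur in transcripts of other genes, so some of its reads may not have been counted.

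The other peroxiredoxins differed by less. *Prdx4*, of the endoplasmic reticulum, was at 77.7 ± 2.17 and 67.5 ± 0.367 CPM (log2 fold change -0.20, edgeR adjusted p = 0.0851), and *Prdx6*, which also has phospholipase activity, at 203 ± 5.32 and 177 ± 13.0 CPM (log2 fold change -0.20, edgeR adjusted p = 0.124). Both had the Nrf1-CKO libraries below the wildtype pair. *Prdx1* was slightly above (118 ± 6.37 and 127 ± 0.421 CPM), *Prdx5* slightly below (26.3 ± 0.666 and 25.1 ± 0.0209 CPM), and the mitochondrial *Prdx3* overlapped (52.1 ± 6.69 and 55.7 ± 0.469 CPM), as did *Srxn1* (25.8 ± 0.152 and 25.2 ± 0.841 CPM). The edgeR adjusted p of these 4 genes was 0.355 or more.

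Among catalase and the glutathione peroxidases the direction was mixed. *Cat*, the peroxisomal catalase, had 9191 and 8545 counts in wildtype against 8043 and 7360 in Nrf1-CKO libraries, with both Nrf1-CKO libraries below (110 ± 7.25 and 92.9 ± 5.56 CPM, log2 fold change -0.24, SE 0.08, edgeR adjusted p = 0.0715). *Gpx3*, the secreted glutathione peroxidase, had 929 and 870 counts in wildtype against 1153 and 1172 in Nrf1-CKO libraries, with both above (11.2 ± 0.793 and 14.0 ± 0.203 CPM, log2 fold change 0.33, SE 0.12, edgeR adjusted p = 0.0876). Neither reached a 1.4-fold change. *Gpx8*, a membrane protein of the endoplasmic reticulum, was at 45.7 ± 0.749 and 51.4 ± 2.54 CPM (log2 fold change 0.17, edgeR adjusted p = 0.166). *Gpx1*, the main cytosolic form, and *Gpx7*, of the endoplasmic reticulum, overlapped between the genotypes, with log2 fold changes of 0.09 and 0.17 (edgeR adjusted p = 0.458 and 0.433).

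*Gpx4*, which reduces lipid peroxides in membranes and guards cells against ferroptosis, had 635 and 595 counts in wildtype against 513 and 523 in Nrf1-CKO libraries. Both Nrf1-CKO libraries were below (7.64 ± 0.545 and 6.25 ± 0.103 CPM), with a log2 fold change of -0.29 (SE 0.15, edgeR adjusted p = 0.216). Its value is uncertain, since 61.7% of its 50-base words are shared with other genes' transcripts, the highest share of the 33 genes, and 54.6% to 58.0% of all entries in the libraries were alignments that were not unique. Of the 33 genes 18 share no such word and 6 share over 10%. *Slc7a11* shares 2.03%, *Gss* 7.11%, and *Hmox1* and *Nqo1* none.

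The dismutases and the thioredoxin system stayed close to the wildtype level. *Sod1*, cytosolic, and *Sod2*, mitochondrial, were at 63.4 ± 1.80 and 63.9 ± 5.73 CPM and at 60.9 ± 0.378 and 56.2 ± 3.24 CPM (log2 fold changes 0.01 and -0.12, edgeR adjusted p = 0.948 and 0.343). The secreted *Sod3* was not tested, having 0 counts in 3 libraries and 8 counts in the first Nrf1-CKO library. The thioredoxins and their reductases summed to 458 and 442 CPM in wildtype against 424 and 465 CPM in Nrf1-CKO libraries. *Txnrd1*, the cytosolic reductase and the most abundant of them in CPM, had 20040 and 15700 counts in wildtype against 17197 and 19438 in Nrf1-CKO libraries, a log2 fold change of 0.00 (SE 0.09, edgeR adjusted p = 0.979). *Txn1*, *Txn2* and *Txnrd2* overlapped as well (log2 fold changes -0.09, 0.03 and -0.05), and *Txnrd3*, expressed mainly in testis, was lower in both Nrf1-CKO libraries at -0.21 (SE 0.11, edgeR adjusted p = 0.208). The glutaredoxins, small enzymes that use glutathione to reduce protein disulfides, overlapped throughout, with log2 fold changes of 0.04 for *Glrx*, -0.09 for *Glrx2* and 0.09 for *Glrx5*.

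By compartment, none of the 7 mitochondrial genes was called, their median log2 fold change was -0.05, with summed levels of 316 and 316 CPM in wildtype against 316 and 317 CPM in Nrf1-CKO libraries. None of the 4 tested genes of the endoplasmic reticulum or the secreted proteins was called. The other 21 genes, whose products work in the cytosol, the nucleus or elsewhere, held the 4 called ones, or 19.0% beside 12.8% of all tested genes. With so few genes in the first 2 sets, the counts do not show that compartments differed. Across all 28 tested genes that were not called, the log2 fold changes lay between -0.31 and 0.48 with SEs of 0.07 to 0.15. With the fold ignored, 13 of the 32 genes had an adjusted p of at most 0.2, or 40.6%, and 39.9% of all tested genes did.

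The genes that rose were among the weakly expressed ones in the wildtype retina. In RPKM, the CPM per kilobase of exon, the highest wildtype level was that of *Prdx2* at 138, followed by *Txn1* at 89.3, *Gpx1* at 72.4 and *Gpx8* at 43.6. *Gpx8*, *Prdx6* (42.2) and *Cat* (42.1) were too close to order. *Hmox1* was in place 24 with 5.37 RPKM, *Gss* in place 29 with 1.83, *Nqo1* in place 30 with 1.64, *Gclm* in place 31 with 1.44 and *Slc7a11* in place 32 with 0.988, with only *Sod3* below it. In the Nrf1-CKO retina *Slc7a11* was at 3.25 and *Gss* at 4.66 RPKM, below the lowest peroxiredoxin, *Prdx5*, at 11.7. In CPM both were above *Prdx5* there, with 45.3 and 27.6 against 25.1.

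**Figure D3:**
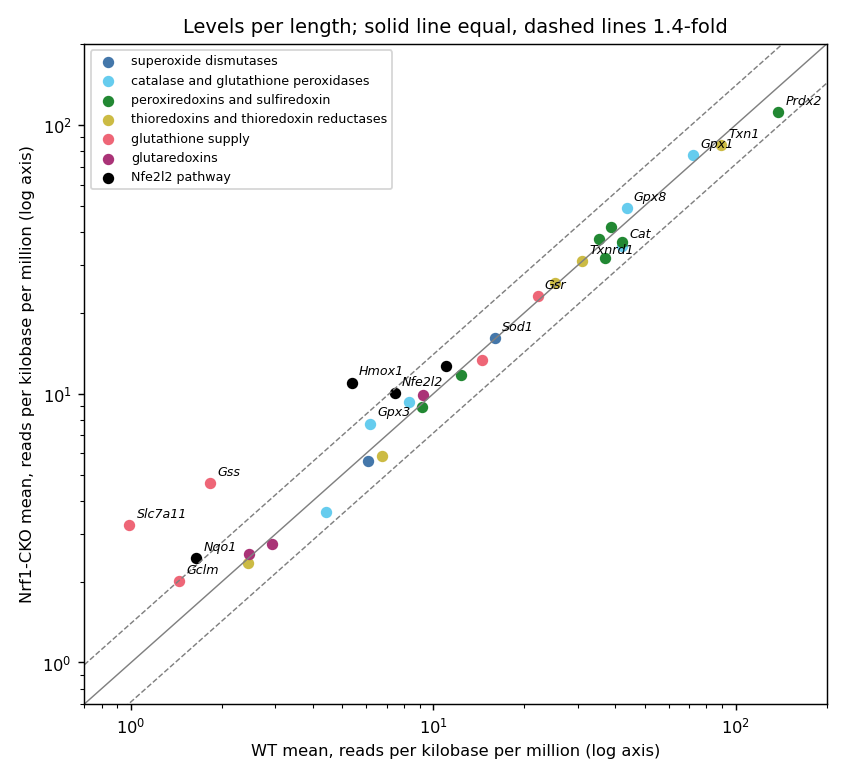
Mean level in RPKM of each tested gene in wildtype (horizontal, log axis) and Nrf1-CKO libraries (vertical, log axis), coloured by group, with a solid line of equal levels and dashed lines at 1.4-fold; some genes are named. *Slc7a11*, *Gss*, *Hmox1* and *Nqo1* lie above the upper line and at wildtype levels of 5.37 RPKM or less, and the genes above 10 RPKM in wildtype lie between the dashed lines.

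A wider list of 100 genes around the system was examined beside it, covering glutathione turnover, transferases, NADPH supply, other thiol enzymes, Nfe2l2 partners and targets, selenoprotein synthesis and other redox genes. Of the 92 tested, 18 rose (19.6%, beside 12.8% of all tested genes) and 8 fell (8.70%, beside 8.04%), with a median log2 fold change of 0.08. In glutathione turnover and cysteine supply 5 of 17 genes rose and 1 fell. *Slc3a2*, the partner of Slc7a11 in the cystine transporter and of other amino acid transporters, had 8533 and 7339 counts in wildtype against 11958 and 12752 in Nrf1-CKO libraries (log2 fold change 0.60, SE 0.08, edgeR adjusted p = 0.000782). Both subunits of the transporter were thus higher in both Nrf1-CKO libraries.

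*Chac1*, which cleaves glutathione inside the cell, was at 2.15 and 2.33 CPM in wildtype against 6.57 and 11.0 CPM in Nrf1-CKO libraries (log2 fold change 1.97, SE 0.25, edgeR adjusted p = 0.000825). In the deposited log2 values its difference was 0.96. *Ggt1*, which cleaves it at the cell surface, was at 6.20 and 5.23 CPM in wildtype against 11.9 and 15.0 CPM in Nrf1-CKO libraries (log2 fold change 1.23, SE 0.16, edgeR adjusted p = 0.000959). *Anpep*, a peptidase that acts after it, rose by 0.63 on the log2 scale (edgeR adjusted p = 0.16), while *Ggt7*, a relative of Ggt1, fell by 0.67 on that scale. The call of *Anpep* did not hold without either wildtype library or without the first Nrf1-CKO library (log2 fold changes 0.79, 0.50 and 0.32). *Slc7a11* and *Chac1* are known targets of the transcription factor Atf4. In a list of 10 Atf4 targets that holds *Chac1* and *Sesn2*, 6 genes rose, those 2 among them, and 1 fell (beside 12.8% and 8.04% of all tested genes), with summed levels of 286 to 304 CPM in the wildtype and 333 to 384 CPM in the Nrf1-CKO libraries. Their link to *Slc7a11* was not tested.

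The glutathione transferases, which attach glutathione to foreign compounds and lipid products, went both ways. Of the 18 genes tested in the list of transferases and other peroxidases, 2 rose and 4 fell. These are 11.1% and 22.2%, beside 12.8% and 8.04% of all tested genes. *Mgst3*, a microsomal form, was at 22.3 and 25.2 CPM in wildtype against 11.6 and 9.48 CPM in Nrf1-CKO libraries (log2 fold change -1.18, SE 0.13, edgeR adjusted p = 0.000424). *Gstm5*, at 89.0 and 87.6 CPM in wildtype against 57.7 and 56.2 CPM in Nrf1-CKO libraries, and *Gstm7* fell by 0.63 and 0.64 on the log2 scale. *Gstm2* rose by 0.94 and *Gsta4* by 0.51 on that scale. Without the second Nrf1-CKO library neither was called (0.62 and 0.38), and *Gsta4* was not called without the second wildtype library (0.44).

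NADPH, which drives both glutathione and thioredoxin reductases, comes in part from *Idh1* and *G6pdx*. *Idh1*, the cytosolic isocitrate dehydrogenase, was at 271 and 257 CPM in wildtype against 167 and 137 CPM in Nrf1-CKO libraries (log2 fold change -0.79, SE 0.10, edgeR adjusted p = 0.000794). *G6pdx*, of the pentose phosphate pathway, was not called at -0.14 (edgeR adjusted p = 0.228), and *Me1*, malic enzyme, rose by 0.73 on the log2 scale (edgeR adjusted p = 0.158) from a low level of 2.33 and 1.24 CPM, sharing 32.8% of its 50-base words with other transcripts. *Me1* was not called without the second wildtype library (0.35) or without the first Nrf1-CKO library (0.67). Of the 9 genes of NADPH supply 1 rose and 1 fell, 11.1% each, near the 12.8% and 8.04% of all tested genes.

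Among the 20 Nfe2l2 partners, further targets and genes of iron handling 5 rose and 2 fell (25% and 10%, beside 12.8% and 8.04% of all tested genes). The relatives *Nfe2l1* (log2 fold change 0.22, edgeR adjusted p = 0.0813) and the repressor *Bach1* (log2 fold change -0.02, edgeR adjusted p = 0.887) were not called, and *Nfe2l3* fell by 0.79 on the log2 scale from 2.24 and 2.51 CPM (edgeR adjusted p = 0.0845). *Osgin1*, *Slc40a1* and *Ephx1* rose by 1.63, 1.31 and 1.02 on that scale, from wildtype levels of 3.64 CPM or less, and *Cbr1*, a carbonyl reductase, fell by 0.70. *Osgin1* had 32 and 21 counts in wildtype and reached the mean of 1 CPM asked of genes named from these lists through the Nrf1-CKO libraries alone. In the deposited log2 values the differences were smaller, at 0.33 for *Osgin1*, 0.67 for *Slc40a1* and 0.43 for *Ephx1*, and *Osgin1* and *Ephx1* were not called. *Slc40a1*, the iron exporter ferroportin, is abundant in macrophages, whose markers rose as given above. The call of *Nfe2l3* did not hold in 2 of the 4 fits that left out a library, without the second wildtype library (log2 fold change -0.70, edgeR adjusted p = 0.262) and without the second Nrf1-CKO library (log2 fold change -0.77, edgeR adjusted p = 0.201).

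In the remaining lists, none of the 8 genes of selenoprotein synthesis was called, and 1 of 9 other thiol enzymes rose, *Msrb3*, a methionine sulfoxide reductase (log2 fold change 0.86, SE 0.13, edgeR adjusted p = 0.00213). *Txnip*, the inhibitor of thioredoxin, was not called (log2 fold change 0.25, edgeR adjusted p = 0.0824). Of the 11 other redox genes 4 rose and none fell. The metallothionein *Mt1*, which binds zinc and copper, was at 2.38 and 1.78 CPM in wildtype against 9.98 and 13.3 CPM in Nrf1-CKO libraries (log2 fold change 2.48, SE 0.21, edgeR adjusted p = 0.000156). *Mt2* rose by 2.69 on the log2 scale from 17 and 23 counts in wildtype, reached that mean through the Nrf1-CKO libraries alone, and shares 45.5% of its 50-base words. In the normalized log2 values that the authors deposited, the log2 difference was 1.28 for *Mt1* and 0.59 for *Mt2*. *Sesn2*, a stress-induced sestrin, was at 11.3 and 13.0 CPM in wildtype against 33.1 and 45.6 CPM in Nrf1-CKO libraries (log2 fold change 1.70, SE 0.16, edgeR adjusted p = 0.000209). *Sesn2* is a target of p53 as well as of Atf4. In a list of 10 further p53 targets 7 rose, beside 12.8% of all tested genes, and 1 of the 7, *Fas* (named after its values were seen), had 1 and 0 counts in wildtype and was tested only because of its 21 and 20 counts in Nrf1-CKO libraries. The list had summed levels of 250 and 244 CPM in wildtype against 381 and 403 CPM in Nrf1-CKO libraries, and the link to *Sesn2* was not tested.

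**Figure D4:**
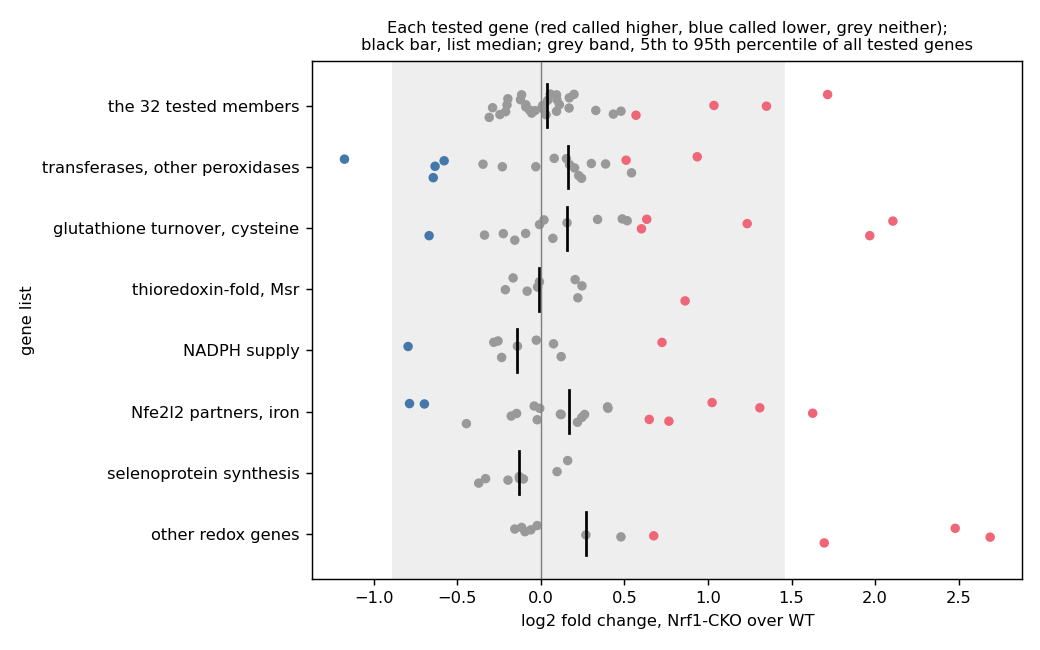
Log2 fold change of each tested gene in the system of 33 genes and in the 7 lists around it; red points were called higher, blue lower and grey neither, black bars mark each list's median, and the grey band spans the 5th to the 95th percentile of all tested genes (-0.88 to 1.46). *Slc7a11* is the one point of the 32 tested genes outside the band, and 4 of the 7 lists around it hold points of both colours.

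Markers of other tissues also differed between the libraries. The lens list had summed levels of 154 and 423 CPM in wildtype against 8878 and 3627 CPM in Nrf1-CKO libraries, with *Lgsn* at 0 in 3 libraries, and the erythroid list 570 and 671 CPM in wildtype against 742 and 739 CPM in Nrf1-CKO libraries, with 3 of 7 tested genes higher and *Hba-a1* and *Hbb-bt* at 0. The lists of pigment epithelium and periocular mesenchyme had 5 of 7 and 6 of 10 tested genes higher, beside 12.8% of all tested genes. The pigment epithelium list had summed levels of 208 and 148 CPM in wildtype against 379 and 401 CPM in Nrf1-CKO libraries. In the endothelium list 6 of 8 were higher and 1 lower, *Kdr* (log2 fold change -0.55, edgeR adjusted p = 0.00125), which was its most abundant gene and is named here after its values were seen, and the summed level was 274 and 277 CPM in wildtype against 297 and 290 CPM in Nrf1-CKO libraries. *Slc7a11*, *Gss*, *Gclm* and *Nqo1* were higher in the first library than in the second in both genotypes. The periocular mesenchyme list had the same order in both, at 270 and 189 CPM in wildtype against 418 and 355 CPM in Nrf1-CKO libraries. The lens list had it in the Nrf1-CKO pair and the reverse in the wildtype pair. The pigment epithelium list had it in the wildtype pair and the reverse in the Nrf1-CKO pair. *Hmox1* was higher in the second library in both genotypes, and the macrophage list was so in the Nrf1-CKO pair and the reverse in the wildtype pair. Library numbers do not pair the libraries, so a shared order does not tie a gene to a tissue. The part of these tissues in the results was not tested. When the markers were left out of the scaling, *Slc7a11*, *Gss*, *Hmox1* and *Nqo1* were called as before. That setting changed the scaling factors alone and took no reads of other tissues away from these genes.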

How the data were processed

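RNA-seq counts of 4 libraries of E13.5 retinas (2 wildtype, 2 Nrf1-CKO) were analysed, grouped by the genotype in the labels. The authors aligned reads to mm10 with Tophat (TopHat2 2.7.2 in the submitters' processing notes), counted reads per gene with HTSeq and deposited whole-number counts without normalization. The annotation release and the use of strand are not given in the sources used here. The authors also deposited normalized log2 values, used here only as an alternative. The submitters' processing notes name DESeq and limma too, and how these values were made is not given in the sources used here. The 5 summary lines of HTSeq, 74.0% to 75.0% of entries, were left out.

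Genes were filtered with filterByExpr (minimum count 10), scaled with TMM and tested with edgeR 4.0.16 (R 4.3.3) by its quasi-likelihood method over 15762 genes, with genotype as the sole term. Cuffdiff, which the study used, needs alignments, and its thresholds were kept. Each SE is the size of the log2 fold change over the square root of F. The procedure was tested on simulated data. The labels give no separate litters, so p-values measure the spread between libraries, which may be technical. Depth was similar in all libraries, intervals cover counting error and the spread of 2 libraries, and reads are not independent molecules where PCR copied them. Replicates within a genotype differed by more than sampling noise. Same-numbered libraries did not deviate together (correlation of deviations 0.00 over genes), so numbers were not treated as pairs.

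The members and lists, and the alternatives, were chosen with earlier results of these data known. The text names every member, and from each surrounding list at most 3 called genes per direction with the largest change among those with a mean of at least 1 CPM in either genotype, plus *Nfe2l1*, *Bach1*, *Txnip*, *G6pdx* and *Slc3a2*. Positions, exon lengths and shared 50-base words come from the GENCODE annotation of GRCm38, promoters from RefSeq (GRCm38.p6). The alternatives were DESeq2 1.42.0, limma 3.58.1 on the deposited values, other scalings, filters, tests and thresholds, the replicate number as a block and each library left out.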

Additional observations from a re-analysis of the deposited data

How the results depend on the processing

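Over 16 alternatives, 480 of 512 values of the 32 tested genes kept their direction and call, 18 changed call and 14 changed sign. *Slc7a11*, *Gss* and *Hmox1* were called in all 16. *Nqo1* was not called with glmTreat against a 1.4-fold change, with an adjusted p of at most 0.05, with the deposited values (log2 fold change 0.25), or in 2 of the fits that left out a library (0.45 and 0.51). *Gclm* was called with upper-quartile scaling (0.52) and with at least 10 counts in every library (0.49). Without a minimum fold 9 members were higher and 4 lower (*Cat*, *Prdx2*, *Prdx4* and *Prdx6*), as were 30 and 16 genes of the wider list and 3211 and 3076 of all genes. With glmTreat 743 genes were lower and 1188 higher, 11 of the higher ones in the wider list, and with limma on the deposited values 723 and 945, 9 of the higher ones in the wider list. Of the genes named from the wider list, *Anpep*, *Gsta4*, *Gstm2*, *Me1* and *Nfe2l3* were not called with glmTreat or with the deposited values, *Slc3a2* not with glmTreat, and *Ephx1* and *Osgin1* not with the deposited values, and *Anpep*, *Me1* and *Nfe2l3* not with an adjusted p of at most 0.05 either. With the deposited values the folds of *Chac1*, *Mt1*, *Mt2*, *Osgin1*, *Slc40a1* and *Ephx1* were over 1.5 times smaller than in the counts. Apart from the change of threshold, the cause was not tested.

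The replicate number as a block gave 4 members higher and 0 lower, 8 genes of the wider list lower and 18 higher, and 1256 genes lower and 1970 higher in all. The block changed none of these counts by over 1.5 times, and the numbers do not pair the libraries.

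With each library left out, 3 to 5 members were higher and 0 lower, the members' median lay between 0.0082 and 0.091 (highest without the first Nrf1-CKO library), 15 to 18 genes of the wider list were higher and 7 lower, and 1071 to 1402 of all genes were lower and 1703 to 1856 higher. *Gclm* was among the members called without the first wildtype and without the second Nrf1-CKO library.

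Signs changed where the change was near 0. With library-size scaling *Sod1* was at -0.0089 and *Txnrd1* at -0.016, and with upper-quartile scaling *Srxn1* was at 0.0047, *Nrf1* at 0.0060 and *Bach1* at 0.018. With each library left out, *Sod1* ranged from -0.086 to 0.10, *Txn2* from -0.033 to 0.11, *Prdx3* from -0.026 to 0.24, *Txnrd1* from -0.091 to 0.094, *Txnrd2* from -0.19 to 0.064, *Glrx* from -0.063 to 0.16, *Gsr* from -0.024 to 0.13 and *Bach1* from -0.099 to 0.068. The median over all genes moved by 0.04 at most under any scaling.

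With 2 libraries per genotype, small changes of weakly expressed genes such as *Nqo1* and *Gpx4* are the least certain, and *Sod3* was too low to test.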
